A study of Rattus norvegicus with 4 samples.

Results

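AP-1 and EGR immediate early factors are 10 genes, Fos, Fosb, Fosl1, Fosl2, Jun, Junb, Jund, Atf3, Egr1 and Egr2, a set defined by gene family, with no measured value in its rule. Their probes were found through the RefSeq transcript that each probe of the array names, which gave 15 probes for the 10 genes among 45598 probes in all. Of these, 14 probes of 9 genes exceeded background clearly on 2 or more arrays (the scanner's well-above-background call) and entered the test, and Fosb did not. The cells were oligodendrocyte precursors (OPCs) of the rat, from which myelinating oligodendrocytes form, taken from cortex at postnatal day 2 and grown for 3 days with bFGF and PDGF. One group received a synthetic copy of a microRNA, miR-125a-3p (2 samples, named for it), and the other a control RNA (2 samples, called miR-neg), both at 50 nM with the same lipid reagent, so all groups carried a transfected RNA. RNA was taken 48 h later and 1 single-colour Agilent array was run per sample. The series calls the samples of a condition independent and does not say whether each had its own animal or culture, and the p-values therefore cover only sample-to-sample spread, which may be technical.

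AP-1 is a dimer of basic leucine zipper proteins. Jun proteins pair with each other or with Fos proteins, Fos proteins need a Jun partner, and Atf3 can pair with Jun proteins. EGR proteins bind GC-rich DNA through zinc fingers. Many of these genes are immediate early genes, which growth factors, depolarisation or stress switch on within minutes through kinases such as ERK, JNK and p38 and without new protein synthesis. Their transcripts are short-lived, so a single late time point shows a standing level and not an induction. In the nervous system Egr2, also called Krox20, is best known from Schwann cells, where it drives myelin genes.

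The transfected mimic copies the mature 3p strand of miR-125a, printed here because its seed (bases 2 to 8, in capitals) is the part by which a microRNA mainly recognises transcripts. The sequence is that of RefSeq on GRCr8, 5′ to 3′, at chr1:67350727-67350748 on the plus strand.
rno-miR-125a-3p: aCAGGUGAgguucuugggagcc
The 5p strand of the same hairpin has a different seed, in capitals.
rno-miR-125a-5p: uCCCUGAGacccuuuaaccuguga
Among the 724 mature rat entries of the RefSeq table, 0 others had the seed CAGGUGA. Target sites for it in the members' transcripts were not analysed here.

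Fos, Jun and Atf3 had lower values on both miR-125a-3p arrays than on both miR-neg arrays, with log2 differences of -0.57, -0.53 and -0.71. Egr1, Egr2, Fosl1 and Fosl2 had higher values on both miR-125a-3p arrays, with log2 differences of 0.47, 0.35, 0.95 and 0.08. Of these, Fosl1 was not well above background on either miR-neg array. Junb and Jund overlapped between the groups. None of the 9 members tested passed an adjusted p of 0.05 in limma's moderated test over 23155 features, against 0.687% of all features. At an unadjusted p under 0.05 there were 3 of 9 (Fos, Jun and Atf3), against 19.5% of all features. Groups did not overlap, lower after the mimic, in 3 of 9 members, against 24.1% of all features, and did not overlap, higher, in 4 of 9 against 28.7%, a count that takes in Fosl1, which entered the test only through the arrays where it was higher. The medians of the log2 differences were 0.08 over the 9 members and 0.01 over all features.

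**Figure D1:**
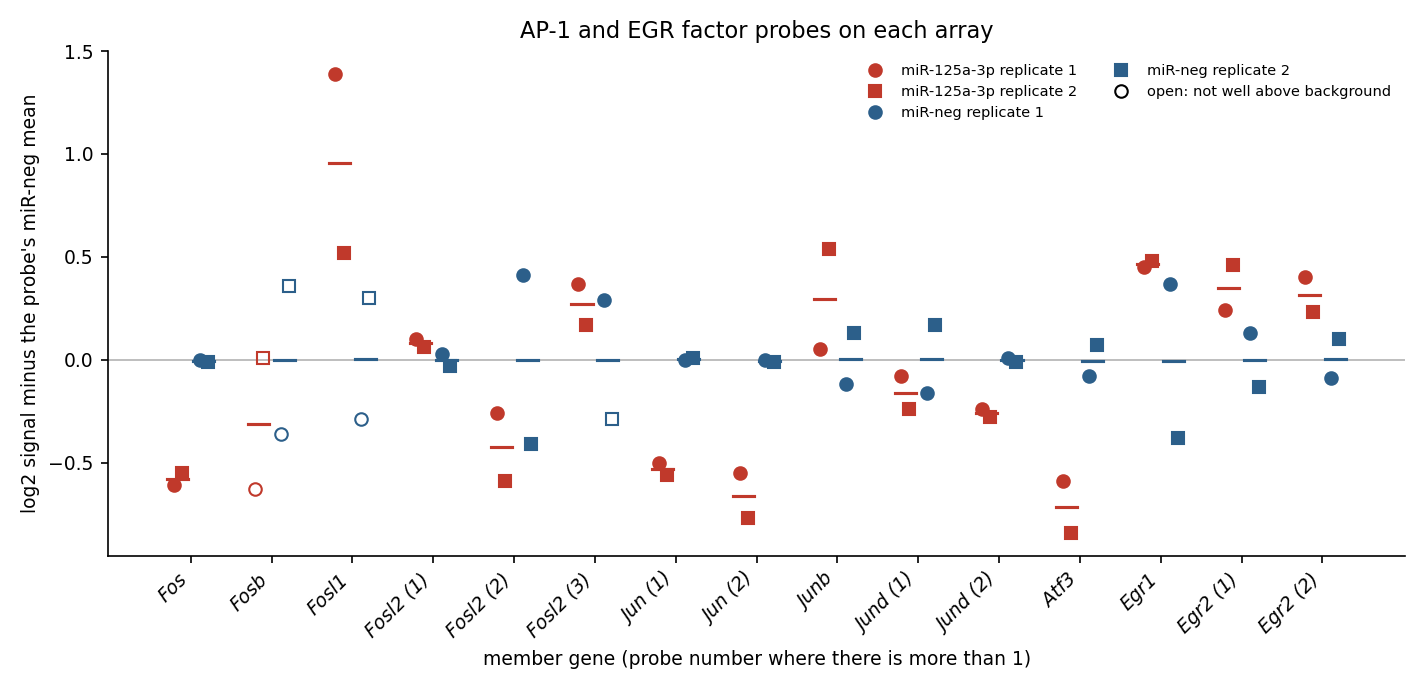
Log2 signal of each of the 15 probes on each array, after subtracting the probe's miR-neg mean, with miR-125a-3p arrays left of miR-neg arrays and bars at group means (n = 2 each). Fos, Jun (both probes) and Atf3 lie below every miR-neg value, and open symbols mark arrays where a probe was not well above background.

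The 4 arrays were similar in brightness. The 75th percentile of processed signal was 702 and 717 in miR-125a-3p and 745 and 679 in miR-neg, with 0 saturated spots, and values called levels below are log2 signals relative to it. Between 26312 and 28115 probes were well above background per array. All arrays were on 1 slide and read in 1 scan, but 1 axis of array position on the slide ran with the treatment, and these cannot be told apart. Of 12 OPC markers, 12 were tested and 0 passed in limma, with 3 at an unadjusted p under 0.05 (19.5% of all features), and Pdgfra, the PDGF receptor that defines these cells, had signals of 24726 and 26533 in miR-125a-3p and 34800 and 31841 in miR-neg. Markers of other cells were mostly at higher values after the mimic, and few passed in limma (background 0.687%). Of those tested, 1 of 10 astrocyte, 1 of 10 microglia and macrophage and 1 of 7 fibroblast and vascular markers passed, all 3 higher (Aldh1l1, C1qa and Tagln). Of 9 neuron markers 0 passed, with 2 at an unadjusted p under 0.05. At that unadjusted p there were 6 of 10 astrocyte, 7 of 10 microglia and macrophage and 5 of 7 fibroblast and vascular markers, against 19.5% of all features. Of these, the astrocyte marker Glul was lower, with 1435 and 1323 in miR-125a-3p against 2031 and 1781 in miR-neg (log2 difference -0.46), and the rest were higher. The median log2 differences were 0.21 for astrocyte, 1.31 for microglia and macrophage and 0.92 for fibroblast and vascular markers, against 0.06 for OPC and 0.08 for neuron markers. These counts and medians take in C1qc and Pdgfrb, each well above background on only 2 of the 4 arrays. On miR-neg replicate 1 their signals, 5.55 and 11.6, lay below the lowest signal well above background there, 12. Their entry into the test thus leaned on arrays where they were higher, and Pdgfrb is itself the fibroblast and vascular median. The microglial genes Aif1, Tyrobp and C1qb lay at 1.56, 1.36 and 1.27 and did not pass. Summed over the tested genes, relative to the 75th percentile, astrocyte markers came to 209.09 and 211.7 in miR-125a-3p against 186.88 and 198.84 in miR-neg. The same sum for microglia markers was 3.6 and 4.11 against 3.09 and 3.58, most of it from the bright probes of Cx3cr1 and Cd68, whose log2 differences were -0.06 and -0.28. The sum for fibroblast and vascular markers was 1.05 and 1.21 against 0.63 and 0.63. OPC markers summed to 655.39 and 674.86 in miR-125a-3p against 693.81 and 751.05 in miR-neg, and neuron markers to 13.64 and 12.87 against 12.06 and 13.36. Of the markers not tested, Ptprc, Pecam1, Dcn, Lum, Gjb6 and Slc17a7 were well above background on 0 of the 4 arrays. Csf1r and Cldn5 were so on 1 array each, with highest signals of 37.8 (miR-125a-3p replicate 1) and 39.3 (miR-neg replicate 2). The part of these other cells in the values of the AP-1 and EGR genes was not tested, and in bulk RNA fewer cells of a type and less RNA per cell cannot be told apart.

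Fos encodes c-Fos, the partner of Jun in the classical AP-1 dimer. Its probe, printed at 2 spots, had processed signals of 541 and 576 in miR-125a-3p and 873 and 793 in miR-neg. The groups did not overlap, and the arrays of a group lay close together. The level was -0.35 ± 0.04 in miR-125a-3p and 0.23 ± 0.003 in miR-neg (SD, n = 2 each), a log2 difference of -0.57 (SE 0.08, 95% interval -0.78 to -0.36, limma adjusted p = 0.0735), or 0.672 of the miR-neg level. Over all features, 3.33% had a larger decrease than Fos.

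Fosl1 encodes Fra-1, a Fos relative that lacks the transactivation domain of c-Fos. It had signals of 39.3 and 22 on the miR-125a-3p arrays, both well above background, and 13 and 17.9 on the miR-neg arrays, neither well above background. It therefore passed the filter on dim probes only through the group where it was higher. The levels were -4.59 ± 0.61 in miR-125a-3p and -5.55 ± 0.42 in miR-neg (SD, n = 2 each), 1.94-fold higher by a bound that sets the dim arrays at no less than the lowest signal well above background on them. Here the bound equals the plain ratio (limma adjusted p = 0.282). The log2 difference was 0.52 without miR-125a-3p replicate 1, 1.39 without miR-125a-3p replicate 2, and 0.21 with another background correction (normexp). That correction added an offset of 50 to every intensity, which by itself narrows differences at dim signals.

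Fosl2 encodes Fra-2, the other Fra protein, and its 3 probes did not move together. The probe with the highest mean had signals of 143 and 143 in miR-125a-3p and 146 and 127 in miR-neg, a log2 difference of 0.08 (SE 0.08, 95% interval -0.14 to 0.29, limma adjusted p = 0.647). The groups of this probe overlapped before scaling and did not after it. The second probe had 29.2 and 23.7 in miR-125a-3p against 49.4 and 25.4 in miR-neg (log2 difference -0.43). The remaining probe had 24.5 and 21.8 in miR-125a-3p against 24.6 and 15 in miR-neg (0.27), with 3 of the 4 arrays well above background. These other probes overlapped between the groups, and the mean over the 3 probes gave -0.03. Fosb, a close relative of Fos known from neurons, was above background by that call on 0 of the 4 arrays, with signals of 7.58 and 12.1 in miR-125a-3p and 9.7 and 14.6 in miR-neg. No difference was detectable at signals this dim.

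Jun encodes c-Jun, the main target of the JNK kinases and the AP-1 subunit that can also bind DNA as a pair with itself. Its brighter probe was printed at 10 spots per array, which shows the error within an array. The spots ranged from 3292 to 3650 and from 3200 to 3596 on the miR-125a-3p arrays, and from 4973 to 5380 and from 4537 to 4982 on the miR-neg arrays. No spot of a miR-125a-3p array reached the lowest spot of a miR-neg array, and the coefficient of variation within an array was between 2.75% and 4.12%. Spots of 1 array share its RNA and are not replicates, so the test used 1 value per array. That level was 2.26 ± 0.04 in miR-125a-3p and 2.79 ± 0.01 in miR-neg (SD, n = 2 each), a log2 difference of -0.53 (SE 0.08, 95% interval -0.74 to -0.32, limma adjusted p = 0.0795). The second Jun probe had signals of 2382 and 2086 in miR-125a-3p against 3694 and 3355 in miR-neg. Its groups did not overlap either, with a log2 difference of -0.66 (SE 0.11, limma adjusted p = 0.0965 with every probe as a feature).

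**Figure D2:**
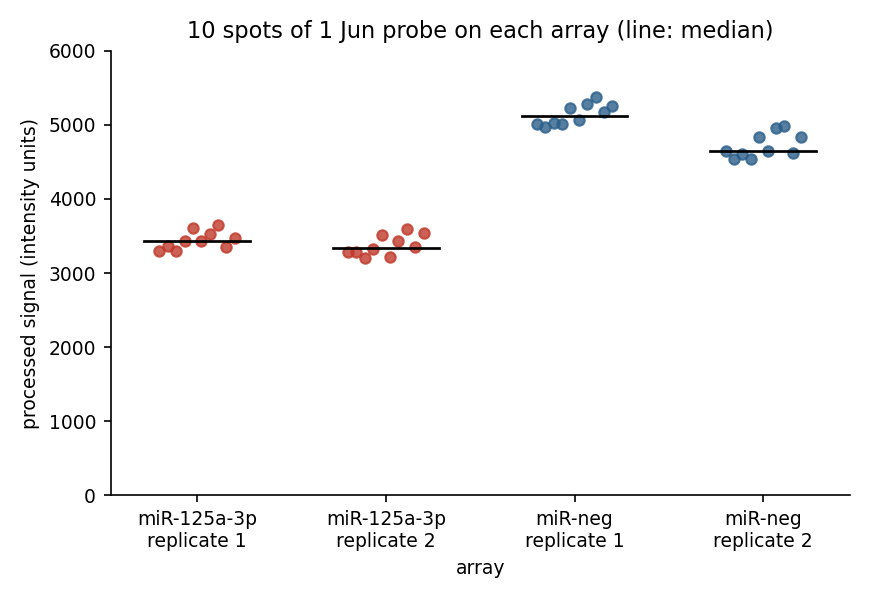
Processed signal (intensity units, axis from 0) of the 10 spots of 1 Jun probe on each array, miR-125a-3p arrays on the left, with a line at the median. The medians are 3434 and 3336 in miR-125a-3p and 5120 and 4645 in miR-neg.

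Junb, a Jun relative that is a weaker activator at many AP-1 sites, had signals of 59.4 and 85.1 in miR-125a-3p and 56.3 and 60.6 in miR-neg. The groups overlapped before scaling and after it, with scaled values of -3.56 and -3.07 against -3.73 and -3.48. The log2 difference was 0.29 (SE 0.20, 95% interval -0.27 to 0.85, limma adjusted p = 0.503), and it was 0.53 without miR-125a-3p replicate 1, 0.04 without miR-125a-3p replicate 2 and 0.17 without miR-neg replicate 1. Jund, the Jun protein whose gene is least dependent on stimulation, had signals of 7802 and 7119 in miR-125a-3p and 7789 and 8939 in miR-neg. Its groups overlapped before and after scaling, with a log2 difference of -0.16 (SE 0.15, 95% interval -0.57 to 0.25, limma adjusted p = 0.612). This difference was 0.01 without miR-neg replicate 2, -0.33 without miR-neg replicate 1 and -0.08 without miR-125a-3p replicate 2. A second Jund probe had signals of 335 and 333 in miR-125a-3p against 421 and 380 in miR-neg, without overlap (log2 difference -0.26, limma adjusted p = 0.207 with every probe as a feature). The interval of Jund reaches the difference seen for Jun (-0.53), and that of Junb does not.

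Atf3, a stress-induced member of the same zipper superfamily that often acts as a repressor, had the most negative difference of the 9. Its signals were 370 and 320 in miR-125a-3p and 561 and 569 in miR-neg, from 2 spots on each array. Before scaling, every spot of the miR-125a-3p arrays, 318 to 386, was below every spot of the miR-neg arrays, 551 to 587. As for Jun, spots of 1 array are not replicates. The levels were -1.04 ± 0.17 in miR-125a-3p and -0.33 ± 0.11 in miR-neg (SD, n = 2 each), a log2 difference of -0.71 (SE 0.12, 95% interval -1.05 to -0.37, limma adjusted p = 0.1), or 0.611 of the miR-neg level. Of all features, 2.03% had a larger decrease.

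Egr1, a zinc-finger factor and a common readout of ERK signalling, had signals of 556 and 577 in miR-125a-3p against 557 and 302 in miR-neg. The miR-neg arrays differed from each other by 0.75 on the log2 scale, more than the difference between the groups, which was 0.47 (SE 0.27, 95% interval -0.28 to 1.22, limma adjusted p = 0.425). Without miR-neg replicate 2 the difference was 0.09, and without miR-neg replicate 1 it was 0.84. Only after scaling did both miR-125a-3p values (-0.34 and -0.31) lie above both miR-neg values (-0.42 and -1.17). Egr2 had signals of 75.6 and 90.3 in miR-125a-3p and 74.9 and 56.8 in miR-neg at its brighter probe. The scaled groups did not overlap, with a log2 difference of 0.35 (SE 0.14, 95% interval -0.04 to 0.74, limma adjusted p = 0.298). The second Egr2 probe gave 70.9 and 64.5 in miR-125a-3p against 53.4 and 55.5 in miR-neg (log2 difference 0.32), again without overlap. With normexp the differences of these probes were 0.11 and 0.18, and with 1 array left out the brighter probe ranged from 0.21 to 0.48.

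**Figure D3:**
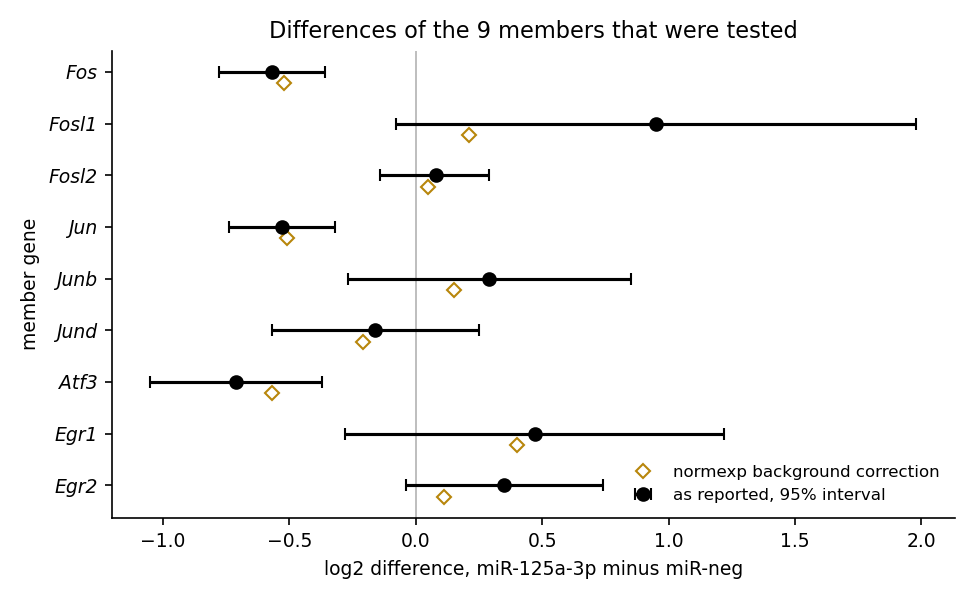
Log2 difference, miR-125a-3p minus miR-neg, of the 9 members tested, with the 95% interval of limma's moderated test (n = 2 per group) as bars, and the same difference with normexp as diamonds. The intervals of Fos, Jun and Atf3 lie below 0 before adjustment for the number of features. The differences of the dim genes Fosl1 and Egr2 shrink with normexp, whose offset of 50 by itself narrows differences at dim signals.

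The promoters of Egr1 and Egr2 are shown because, of the 7 member promoters at hand, only these hold a CArG box (in capitals). Serum response factor binds this element, through which growth factor signals reach immediate early genes. Whether the element bears on the values of these genes was not tested. The RefSeq table of GRCr8 holds 300 bases of promoter for 7 of the 10 members, from 250 bases before the start to 50 after it. Fos, Jun and Atf3 are not among these 7, so their promoters were not searched. Sequences run 5′ to 3′ on the gene's strand. Egr1 lies on the plus strand at chr18:26736828-26737127 and Egr2 on the minus strand at chr20:21054392-21054691.
Egr1: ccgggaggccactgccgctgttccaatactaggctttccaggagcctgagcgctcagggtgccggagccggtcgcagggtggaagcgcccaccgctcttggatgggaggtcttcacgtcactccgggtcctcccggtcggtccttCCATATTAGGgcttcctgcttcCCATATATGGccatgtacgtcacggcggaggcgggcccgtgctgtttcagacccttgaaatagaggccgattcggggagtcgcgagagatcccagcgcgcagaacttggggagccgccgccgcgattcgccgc
Egr2: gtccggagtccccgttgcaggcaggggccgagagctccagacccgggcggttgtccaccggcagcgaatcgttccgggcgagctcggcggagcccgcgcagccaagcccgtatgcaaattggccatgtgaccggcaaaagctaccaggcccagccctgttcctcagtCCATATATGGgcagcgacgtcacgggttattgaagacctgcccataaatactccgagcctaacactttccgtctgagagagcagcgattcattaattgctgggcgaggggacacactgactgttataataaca
Egr1 holds a pair of CArG boxes in this window, from position -105 to -96 and from -83 to -74 relative to the start, and Egr2 holds 1, from -83 to -74. A CArG box was found on either strand in 2 of the 7 member promoters and in 1.64% of 33469 rat promoters of the same length. The cyclic AMP response element TGACGTCA was found in 1 of the 7, Jund, and in 1.83% of all, and the AP-1 site TGANTCA in 0 of the 7 and in 7.33% of all. The EGR site GCGNGGGCG was found in 2 of the 7, Fosl2 and Jund, and in 4.98% of all. Each motif was searched on both strands and counted separately, also where motifs could overlap, and a match is a description of letters and not a site shown to be used here.

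Whether Fos, Jun and Atf3 passed differed between the ways of processing. With a variance that follows the mean signal, 3 of 9 members passed, all lower (Fos, Jun and Atf3, limma adjusted p = 0.0034, 0.00189 and 0.0049), against 4.45% of features lower. With normexp, 3 of 9 passed, the same genes (0.00455, 0.00548 and 0.00781 by limma's adjusted p), against 3.58% of features lower. On probes well above background on all 4 arrays, 2 of 8 members passed, Fos and Jun (limma adjusted p = 0.0416 and 0.0459), against 1.56% lower. Across all 16 alternatives the difference ranged from -0.6 to -0.52 for Fos, from -0.59 to -0.5 for Jun and from -0.83 to -0.57 for Atf3. With 1 array left out the difference ranged from -0.6 to -0.54 for Fos, from -0.56 to -0.5 for Jun and from -0.83 to -0.59 for Atf3. Such fits leave 1 array in a group, and their outcome for all features is given below. With the replicate number as a block none of the 3 passed, and neither did any other of the 23155 features.

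**Figure D4:**
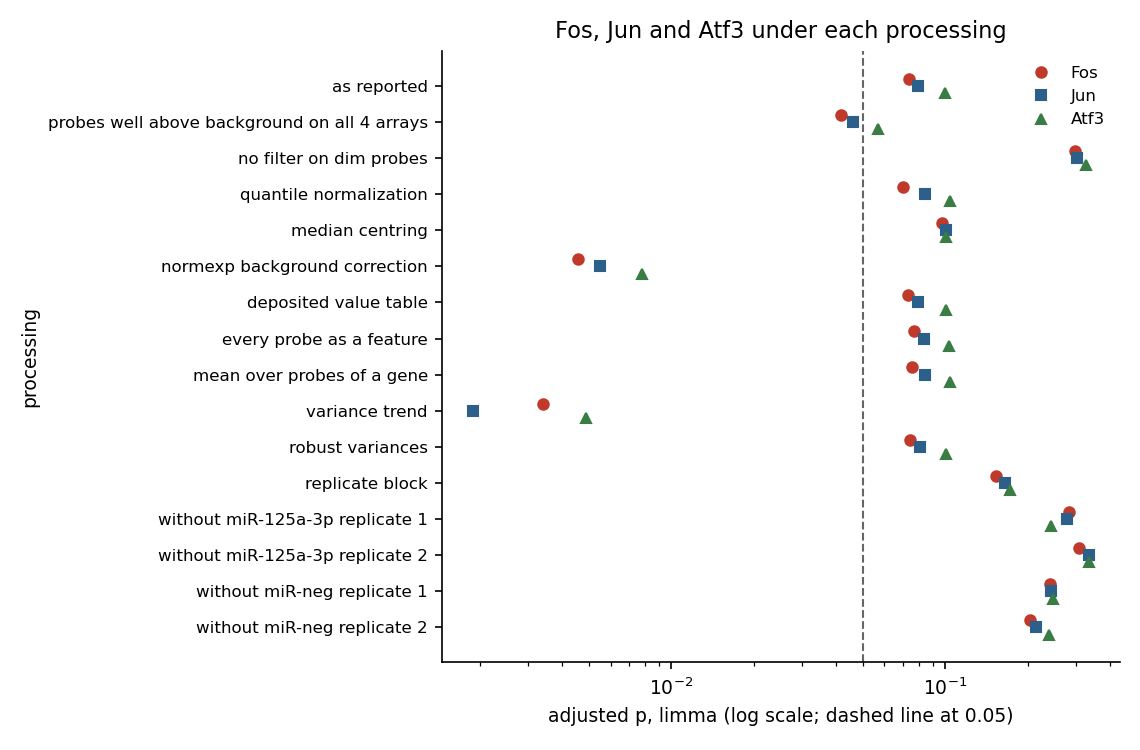
Adjusted p of limma (log axis) for Fos, Jun and Atf3 under each processing, with the threshold of 0.05 as a dashed line. Points left of the line occur with the variance trend, with normexp and, for Fos and Jun, on probes well above background on all 4 arrays.

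Of 12 tested bZIP genes related to AP-1, 0 passed in limma (background 0.687%), with 4 at an unadjusted p under 0.05 (19.5% of all features), and their median log2 difference was -0.04. Maff, a small Maf protein without a transactivation domain, had signals of 155 and 148 in miR-125a-3p against 70.9 and 83.4 in miR-neg (log2 difference 0.98, limma adjusted p = 0.0862). Maf, a large Maf factor, had 375 and 336 in miR-125a-3p against 574 and 559 in miR-neg (-0.67, limma adjusted p = 0.0877), and its second probe gave -0.45. Batf3 and Atf5 lay at 0.26 and -0.24.

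Of 33 other immediate early genes tested, 1 rose, 1 fell and 31 did not pass in limma (background 0.687%). At an unadjusted p under 0.05 in limma there were 13 of 33, against 19.5% of all features. Ccn1, a secreted matricellular protein of the Yap and serum response programmes, rose by 1.40 on the log2 scale, with signals of 243 and 237 in miR-125a-3p against 95.3 and 87.1 in miR-neg (SE 0.08, limma adjusted p = 0.0357). Gadd45b, a stress-response protein that binds kinases upstream of JNK and p38, fell by 0.88, with 1311 and 1274 in miR-125a-3p against 2512 and 2274 in miR-neg (SE 0.08, limma adjusted p = 0.0476). In this list 0 genes passed with the replicate number as a block or with dim probes kept, settings in which 0 of all features passed. Under quantile normalization 1 passed, higher, while 6 passed with the variance trend and 4 with normexp. In this list 22 of 33 genes lay below 0 (median -0.14, and from -0.24 to -0.09 over the alternatives, against 0.01 for all features), and groups did not overlap in 17 genes, lower, and in 8, higher, against 24.1% and 28.7% of all features. Ier5l (0.40) and Nfil3 (-0.39) had the next smallest p and did not pass. Dusp1, a phosphatase of ERK, JNK and p38 that is itself an immediate early gene, was well above background on only 2 arrays, with 19.7 and 21.8 in miR-125a-3p against 25.1 and 23.5 in miR-neg. Despite these dim signals it counts among the 22 genes below 0 and the 17 lower genes given above. Egr3 and Egr4, the other EGR genes, were at 0.13 and -0.29 and did not pass. Myc (0.02) and the brighter probe of Ier2 (-0.05) overlapped between the groups, and the other Ier2 probe was at -0.33.

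Kinases and factors upstream of AP-1 and EGR genes had a median of 0 over 18 tested genes, with 0 past the threshold in limma (background 0.687%) and 4 at an unadjusted p under 0.05, near the 19.5% of all features. Mapk14, the p38 alpha kinase, had signals of 14159 and 13759 in miR-125a-3p against 11310 and 9905 in miR-neg (log2 difference 0.40, limma adjusted p = 0.118). Elk4, a ternary complex factor that binds beside serum response factor, was at 0.27. Mapk8, which encodes JNK1, was at -0.29, with -0.24 and -0.23 at its other probes. Among 7 genes whose proteins regulate AP-1 or EGR proteins, 0 passed in limma (background 0.687%), with 2 at an unadjusted p under 0.05 (19.5% of all features). These were the EGR corepressors Nab1 and Nab2, with opposite signs. Nab1 had signals of 2781 and 2812 in miR-125a-3p against 3825 and 3586 in miR-neg (log2 difference -0.40, limma adjusted p = 0.107, and -0.10 and -0.75 at its other probes). Nab2 had 542 and 571 in miR-125a-3p against 416 and 436 in miR-neg (0.39, limma adjusted p = 0.176).

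Genes known as AP-1 or EGR1 targets in other cells had a median of 0.46 over 15 tested genes, of which 2 rose and 13 did not pass in limma (background 0.687%). The median was 0.16 with normexp, whose offset of 50 by itself narrows differences at dim signals. It was 0.19 over the 13 genes well above background on all 4 arrays, 0.19 with dim probes kept and 0.18 with every probe as a feature. The median of 0.46 includes Spp1 and Mmp3 (0.66), which entered the test only through the miR-125a-3p arrays. The 2 genes that rose were the chemokine gene Ccl2 and the protease inhibitor gene Timp1. Ccl2 had signals of 349 and 338 in miR-125a-3p against 86.5 and 93.5 in miR-neg (log2 difference 1.94, SE 0.12, limma adjusted p = 0.0373). Timp1 had 837 and 855 in miR-125a-3p against 465 and 452 in miR-neg (0.89, SE 0.08, limma adjusted p = 0.0494). In this list 0 genes passed with the replicate number as a block or with dim probes kept, settings in which 0 of all features passed. Under quantile normalization, with every probe as a feature or with the mean over probes 1 passed, while 6 passed with normexp and 6 with the variance trend. At an unadjusted p under 0.05 in limma there were 7 of the 15 target genes, Spp1 among them, against 19.5% of all features. Groups did not overlap, higher, in 8 of the 15, again with Spp1, and, lower, in 2, against 28.7% and 24.1% of all features. Gfap, which is also on the astrocyte list, was at 0.66 and did not pass (limma adjusted p = 0.0759). Spp1, which had signals of 34.5 and 58.4 in miR-125a-3p and 8.61 and 8.89 in miR-neg, was not well above background in miR-neg and did not pass. The cyclin D1 gene Ccnd1 was at 0.01, and at 0.12 at its other probe. Genes of this list are also made by astrocytes, microglia and fibroblasts, whose markers lay higher after the mimic as given above, and the part of those cells was not tested.

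**Figure D5:**
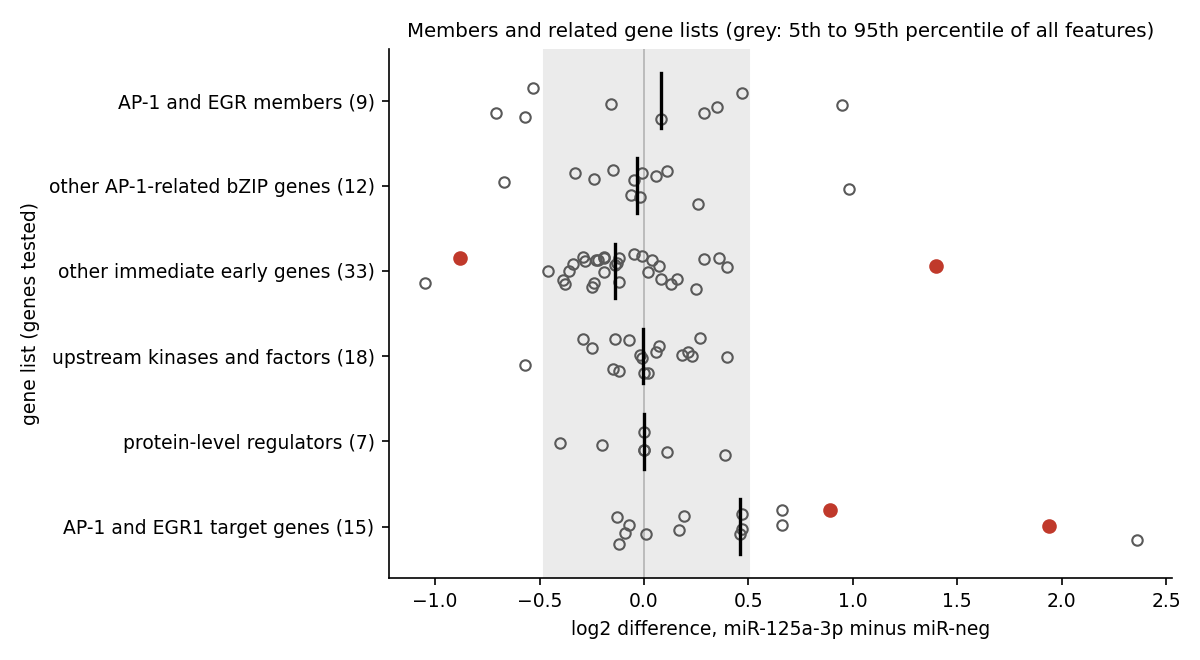
Log2 difference, miR-125a-3p minus miR-neg, of each gene tested in 6 lists, with filled points for genes past an adjusted p of 0.05 and a bar at the list's median. The grey band spans the 5th to the 95th percentile of all 23155 features, -0.48 to 0.5, and Fos, Jun, Atf3 and Fosl1 are the members outside it.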

How the data were processed

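The deposited intensities come from Agilent Feature Extraction 10.7.3.1 per the submitters' processing notes. They had local background subtracted and spatial trends removed, per the file headers. The authors' deposited log2 values equal log2 of that intensity shifted by 1 constant for each array (within 0.01 for 100% of probes), so scale and direction were settled, and their column medians were -4.08 and -4.14 (miR-125a-3p) and -4.07 and -4.15 (miR-neg). Control and flagged spots were left out (65 probes lost), spots of a probe were averaged as log2, and values were scaled to the 75th percentile of their array. Probes well above background on at least 2 arrays were kept (27250), and the probe with the highest mean stood for its gene (23155 features). Symbols came from a RefSeq table of GRCr8, which named 21102 probes. The number of arrays limits the precision.

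The 2 groups were tested by limma 3.58.1 under R 4.3.3 (lmFit, eBayes, two-sided, Benjamini-Hochberg over all features). The code was run on simulated arrays whose variances were drawn from limma's own fitted model, without a variance trend. That run cannot tell whether the model holds for these data. An exact permutation test of 2 against 2 cannot go below p = 0.333. The members and lists were chosen with earlier results of these data known. All 10 members are named, with up to 4 genes per list by smallest p, every list gene past the threshold and 3 nearest profiles for each of 3 members. One gene that this rule names is not reported here. Dusp1, Egr3, Egr4, Myc, Ier2 and Ccnd1 were named after their values were seen. Outside this rule are also Mmp3, the markers Glul, C1qb, C1qc, Cx3cr1, Cd68 and Pdgfrb, and the markers that were not tested. Same-numbered arrays had deviations correlated at 0.0505, which does not pair them.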

Additional observations from a re-analysis of the deposited data

How the results depend on the processing

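Precision is limited by 2 arrays per group and, for Fosb and Fosl1, by signals near background. The count of 159 features (88 higher, 71 lower) became 613 (283 higher, 330 lower) when all 4 arrays had to be above background, 83 (37 and 46) under quantile normalization, 1601 with normexp, 2048 with a variance trend, 984 at a threshold of 0.1, and 0 with dim probes kept, where 3956 features had an unadjusted p under 0.05 in limma. Leaving out any 1 array gave a range from 0 to 0 in limma, with 2748 to 4116 features at an unadjusted p under 0.05, taking the lone array's spread to equal that of the remaining group. A replicate block, which is also the slide axis the groups share, gave 0 in limma, with 3968 such features.

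The members past the threshold numbered 2 (all 4 arrays above background), 3 with normexp, 3 with a variance trend and 2 at a threshold of 0.1, all lower, and 0 in the other alternatives, including the range from 0 to 0 with 1 array left out and 0 with the replicate block. Fosl2 changed sign with the mean over probes (-0.03) and Jund without miR-neg replicate 2 (0.01). For Jund the value without miR-neg replicate 1 was -0.33. The cause was not tested. Normexp was run on median spot signals with an offset of 50, chosen after seeing the data, and normexp on mean spot signals was not run. A block on the slide axis that follows the group could not be fitted.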

Other observations

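Among 11013 genes with a symbol and well above background on all 4 arrays, those whose mean-centred log2 values lay nearest to a member's over the 4 arrays were found by Euclidean distance. For Fos they were Ptgs1 (0.022), Galnt16 (0.023) and Oaf (0.033), with log2 differences of -0.56, -0.57 and -0.54. For Jun they were Gpr52 (0.015), Reep5 (0.026) and Arid3a (0.032), with differences of -0.52, -0.51 and -0.54. For Atf3 the nearest was the bZIP gene Maf (0.068, difference -0.67), followed by Smim30l1 (0.076, -0.71) and Clmp (0.095, -0.69). None of these 9 genes passed in limma (adjusted p from 0.0736 to 0.114), and 4 arrays are too few for such likeness to set a gene apart.

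Trib1, whose protein directs others to degradation, had signals of 42.3 and 59.7 in miR-125a-3p against 156 and 69.9 in miR-neg. It had the most negative difference of the 33 other immediate early genes (-1.05, limma adjusted p = 0.271), and the miR-neg arrays lay far apart. Trib1 was chosen after its values were seen.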
